A study of Mus musculus with 2148 samples.

Results

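The 9 genes described here belong to the RANK receptor and the noncanonical NF-kB pathway, and were taken by symbol from the 48437 genes of a single-cell count table of thymic epithelial cells (TECs). They are the receptors Tnfrsf11a (RANK) and Ltbr, the decoy receptor Tnfrsf11b (osteoprotegerin), the adaptors Traf3 and Traf6, the kinase Map3k14 (NIK), the NF-kB subunits Relb and Nfkb2, and the inhibitor Nfkbia (IkBa). Each symbol matched 1 Ensembl identifier, and reads of all 9 were found, from 73.4% of all cells (Tnfrsf11b) to 99.9% (Nfkbia).

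In the thymic medulla, developing T cells and lymphoid tissue inducer cells present RANKL, CD40 ligand and lymphotoxin to medullary TECs. Their receptors recruit TRAF proteins. In the noncanonical branch, TRAF3 keeps NIK low until receptor engagement releases it, and NIK then promotes the processing of the p100 product of Nfkb2 to p52, which enters the nucleus with RelB. In the canonical branch, TRAF6 and the IkB kinase complex remove IkBa from NF-kB dimers that contain RelA or c-Rel. Mice that lack RelB, NIK or RANK have few or no mature Aire-expressing medullary cells.

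The cells were sorted from C57BL/6 thymus as live CD45-negative EpCAM+ cells, one per well, and sequenced by RamDA-seq, a full-length total RNA method. The mTEChi cells were Ly51-negative with high MHC class II, the mTEClo cells Ly51-negative with low MHC class II, and cTECs Ly51-positive. Adult wild-type (WT) mice gave 620 mTEChi cells (4 to 6 weeks old), mTEClo cells that made up 18.03% of all cells (4, 5 and 8 weeks) and 77 cTECs (6 weeks, male). Aire-knockout (Aire-KO) males of 5 weeks gave 17.1% of all cells as mTEChi and 7.78% as mTEClo, and WT newborns of 1 day and unknown sex gave 8.64% as mTEChi, 6.26% as mTEClo and 7.02% as cTECs. All groups share the C57BL/6 strain, and the WT groups carry no altered allele according to the labels. Cells are not replicates, so reads were summed over the cells of a group with the same age and sex, here called a mouse pool. That gave 4 pools of adult WT mTEChi (4, 5 and 6 weeks male and 4 weeks female, in the order used for all values given by pool), 3 of adult WT mTEClo (4, 5 and 8 weeks, all male) and 1 for each other group. The smallest pools were the 5-week mTEChi pool of 12 cells and the 4-week mTEClo pool of 66. How many mice a pool holds is not given in the sources used here, so p-values measure the spread between pools, which may be partly technical. Values are CPM (reads of a gene per 1000000 reads of the summed cells), a unit suited to 1 gene across groups, and each pool, adult or newborn, is written as a sum and not as a mean of cells. Genes are compared with each other only as CPM per kilobase of exon. Printed levels, and statements that pools lie above, below or apart, are scaled by total reads only. The fold changes of edgeR were also scaled by TMM factors, so they differ from ratios of the printed levels.

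Cells held 203010 to 1823784 reads. Aire stood at 1109.7 to 1844.6 CPM in the 4 WT mTEChi pools and at 26.1 CPM in the Aire-KO mTEChi pool, and H2-Aa, an MHC class II gene, at 1397.5 to 1838.9 CPM in adult WT mTEChi against 371.96 to 873.2 CPM in mTEClo. The adult and newborn cTEC pools had 732.4 and 915.6 CPM of Psmb11, the thymoproteasome subunit of cortical cells. The newborn mTEClo pool also had 283.7 CPM of it, against 0.667 to 14.1 CPM in adult WT mTEClo. Enpep, the Ly51 gene, stood at 59.1 CPM in that pool, against 52.5 CPM in newborn mTEChi and 185.6 CPM in newborn cTECs. In the 4- and 5-week WT mTEClo pools, 54.5% and 52.7% of cells had 1000 or more CPM of 4 tuft cell markers, against 5.53% at 8 weeks, and the calls of adult mTEChi against mTEClo were repeated without those cells. The 12-cell mTEChi pool had the highest levels of Nfkb2, Relb, Nfkbia and Tnfrsf11b of all 13 pools. It shared a plate with the 6-week male mTEChi pool, and the part of its small cell number in these levels was not tested.

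On build GRCm38 (GENCODE M21), the receptor genes lie at chr1:105780718-105847981 (Tnfrsf11a), chr15:54250619-54278484 (Tnfrsf11b) and chr6:125306571-125313885 (Ltbr). Of the adaptor and kinase genes, Traf3 lies at chr12:111166370-111267153, Traf6 at chr2:101678429-101701669 and Map3k14 at chr11:103219762-103267472. Relb lies at chr7:19606217-19629438, Nfkb2 at chr19:46304320-46312385 and Nfkbia at chr12:55489410-55492647.

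Promoter sequence was at hand for 7 of the 9 genes, from RefSeq on build GRCm38.p6, and none for Tnfrsf11b and Relb. The 250 bases before each annotated start were searched on both strands for the NF-kB consensus, and 3 genes held a match, namely Nfkbia, Traf3 and Nfkb2, the last in each of its 3 annotated promoters. Of all 32851 promoter windows of that length, 7.25% hold one. This share is per window and not per gene, and the 7 genes had 9 windows. Nfkb2 and Nfkbia are members whose levels differed between the sorts, and Traf3 is the remaining member with a match, so their windows without UTR bases are printed 5′ to 3′ on the gene's strand. Capitals mark the match.
Nfkb2, chr19:46305445-46305694, plus strand: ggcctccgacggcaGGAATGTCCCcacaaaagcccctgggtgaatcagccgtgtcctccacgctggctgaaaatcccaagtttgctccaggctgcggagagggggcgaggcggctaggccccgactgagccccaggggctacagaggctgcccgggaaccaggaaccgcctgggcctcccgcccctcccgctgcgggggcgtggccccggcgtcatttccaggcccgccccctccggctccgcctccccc
Nfkbia, chr12:55492648-55492897, minus strand: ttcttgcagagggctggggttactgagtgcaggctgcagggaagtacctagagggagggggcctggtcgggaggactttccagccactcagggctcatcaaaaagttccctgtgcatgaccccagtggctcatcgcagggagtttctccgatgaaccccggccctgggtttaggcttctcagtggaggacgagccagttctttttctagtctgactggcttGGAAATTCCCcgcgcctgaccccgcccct
Traf3, chr12:111166120-111166369, plus strand: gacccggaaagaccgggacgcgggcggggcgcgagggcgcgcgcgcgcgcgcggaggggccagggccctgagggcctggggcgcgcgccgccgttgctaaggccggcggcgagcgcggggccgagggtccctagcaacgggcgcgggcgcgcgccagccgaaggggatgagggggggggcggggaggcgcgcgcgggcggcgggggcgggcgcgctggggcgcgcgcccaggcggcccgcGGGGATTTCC
The match begins 29 bases before the start in Nfkbia and 10 in Traf3, and lies near the far end of the window in Nfkb2. The Nfkb2 window also overlaps an exon of AC114539.1. A match describes letters and is not a measured binding site.

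The first comparison asked how the pathway genes differ between the high and low MHC class II sorts of adult WT medullary cells. In mTEChi the receptor Tnfrsf11a, its decoy Tnfrsf11b, Traf6, Relb, Nfkb2 and Nfkbia were higher than in mTEClo, and the lymphotoxin beta receptor gene Ltbr was lower. Of the 9 genes, 6 rose and 1 fell at an adjusted p under 0.05 (edgeR quasi-likelihood test over 40148 genes, Benjamini-Hochberg). In the same test 13.6% of all genes were called, 7.83% as higher and 5.75% as lower, and of genes with 10 or more mean CPM 25.6% were called. The median log2 fold change was 1.15 over the 9 genes and 0.27 over all genes tested. With the scaling of DESeq2's size factors in place of TMM the median over all genes was 0.41, and all 9 genes kept their direction. Each adult plate held 1 sort only, so sort and plate cannot be told apart in the adult comparisons.

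Tnfrsf11a encodes RANK, the receptor for RANKL. Its level was 564.5, 567.6, 489.7 and 731.2 CPM in the 4 mTEChi pools and 198.6, 197.1 and 278.2 CPM in the 3 mTEClo pools. The lowest mTEChi pool lay above the highest mTEClo pool, with means of 588.2 ± 101.9 and 224.7 ± 46.4 CPM (SD, n = 4 and 3 pools). The fitted log2 fold change was 1.15 ± 0.23 (SE) with an edgeR adjusted p of 0.0181. Leaving out the 4-week or the 5-week mTEClo pool ended this call, at 1.05 (adjusted p = 0.0616) and 1.03 (edgeR adjusted p = 0.0686), with the fold change little moved.

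Tnfrsf11b encodes osteoprotegerin, a soluble decoy that binds RANKL and keeps it from RANK. It measured 251.2, 389.1, 236.01 and 280.8 CPM in the mTEChi pools and 36.3, 96.8 and 16.5 CPM in the mTEClo pools. The mTEClo pools spread about a mean of 49.9 ± 41.8 CPM (SD, n = 3), the widest relative spread of the 9 genes in that group. The log2 fold change of 2.36 ± 0.52 (edgeR adjusted p = 0.0251) was the largest of the 9. It lost its call without tuft-marker cells, at 1.60 (adjusted p = 0.112), and without the 4-week male mTEChi, 4-week female mTEChi or 4-week mTEClo pool (edgeR adjusted p = 0.0508, 0.0541 and 0.0827), and it rose to 3.22 without the 5-week mTEClo pool.

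Ltbr, the receptor for membrane lymphotoxin and LIGHT, ran the other way. Its level was 39.3, 45.9, 47.5 and 47.9 CPM in mTEChi and 72.1, 62.6 and 76.8 CPM in mTEClo, with no overlap. The log2 fold change of -0.87 ± 0.18 passed the test (edgeR adjusted p = 0.0208) but did not when any of 4 pools was left out, namely 4-week male, 6-week male or 4-week female mTEChi or 4-week mTEClo (edgeR adjusted p of 0.0549 to 0.0726), nor with age and sex as a block (edgeR adjusted p = 0.257).

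Among the adaptors, Traf6, the ubiquitin ligase that carries RANK signals to the canonical branch, was at 268.8, 337.9, 296.4 and 269.2 CPM in mTEChi and 114.5, 104.1 and 102.02 CPM in mTEClo. Its log2 fold change was 1.23 ± 0.16, with the lowest adjusted p of the 9 genes (edgeR, 0.00432). Traf3, the adaptor that holds NIK in check, differed little, at 251.5, 232.03, 241.5 and 248.9 CPM in mTEChi and 173.7, 170.6 and 174.6 CPM in mTEClo. Its pools did not overlap, but the log2 fold change of 0.27 ± 0.14 missed the threshold (edgeR adjusted p = 0.204). Map3k14, the NIK kinase gene, stood at 160.1, 115.01, 203.9 and 172.01 CPM in mTEChi and 96.8, 97.6 and 104.2 CPM in mTEClo, a log2 difference of 0.48 ± 0.21 that also missed it (edgeR adjusted p = 0.147). DESeq2, which called 27.8% of all genes, and edgeR on plates in place of pools, which called 44.8%, called both of these genes, and limma, at 9.53% of all genes, called Traf3 but not Map3k14. Their position relative to the threshold thus depended on the test.

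The NF-kB subunit genes stood higher in mTEChi in all 4 pools. Relb was at 326.1, 495.2, 309.9 and 423.4 CPM in mTEChi and 88.6, 97.7 and 140.1 CPM in mTEClo, a log2 fold change of 1.60 ± 0.27 (edgeR adjusted p = 0.0107). Nfkb2, which encodes p100, was at 530.2, 761.2, 511.8 and 683.9 CPM and 177.9, 170.2 and 200.7 CPM, a log2 fold change of 1.54 ± 0.21 (edgeR adjusted p = 0.00518). The groups did not overlap for either gene. Nfkbia, the IkBa gene and itself a textbook NF-kB target, was at 576.6, 898.95, 679.5 and 734.5 CPM in mTEChi and 308.1, 253.5 and 294.8 CPM in mTEClo, a log2 fold change of 1.11 ± 0.20 (edgeR adjusted p = 0.0122). Relb, Nfkb2, Traf6 and Nfkbia passed the threshold in all 17 alternative settings run. The pools of all 9 genes were apart between mTEChi and mTEClo, as were those of 39.8% of the genes with 10 or more mean CPM in these 7 pools. Beside these values, 4 myeloid markers (Itgax, Csf1r, Cd68, Lyz2) summed to 276.01 to 456.4 CPM in mTEChi and 22.01 to 76.3 CPM in mTEClo, with 3 of the 4 called higher and none at 0 in an mTEChi pool. Of 7 T cell markers 2 were called higher and of 3 B cell markers 1, with sums of 50.4 to 174.3 against 29.95 to 79.97 CPM for T cells and 4.13 to 32.4 against 0.639 to 1.77 CPM for B cells. The 4 fibroblast markers summed to 42.8 to 221.7 and 22.9 to 130.3 CPM. The part of these markers in the result was not tested.

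**Figure D1:**
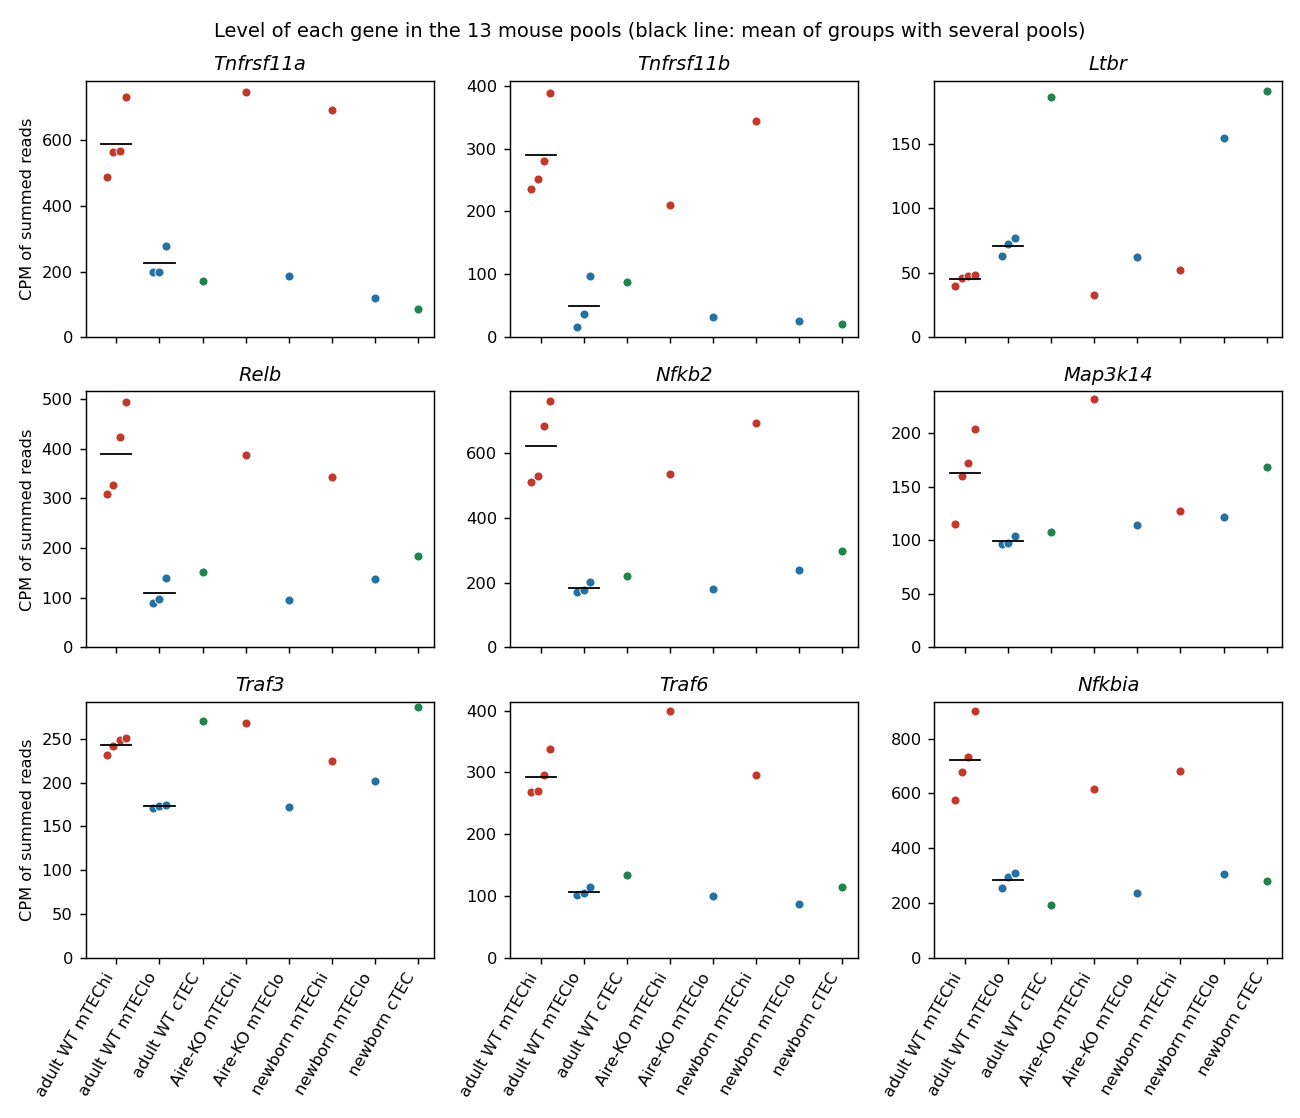
Level of each of the 9 genes in the 13 mouse pools, in CPM of summed reads (y axis from 0), by group (x axis). Each point is 1 pool, red for mTEChi, blue for mTEClo and green for cTEC, and the black line is the mean of the 4 or 3 adult WT pools; all genes but Ltbr, Map3k14 and Traf3 have their 3 highest group levels in mTEChi.

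The 7 listed genes that passed included both receptor and decoy, and on a per-length scale the receptor and decoy were close in mTEChi. Tnfrsf11a averaged 98.3 ± 17.03 and Tnfrsf11b 102.7 ± 24.5 CPM per kilobase (SD, n = 4 pools). In mTEClo the decoy was at 17.7 ± 14.8 and the receptor at 37.5 ± 7.75 CPM per kilobase (n = 3). The ratio of decoy to receptor per length lay between 0.816 and 1.46 in the mTEChi pools and at 0.389, 1.04 and 0.126 in the 4-, 5- and 8-week mTEClo pools, so these ranges overlapped. Nfkbia had the highest level per length of the 9 genes in adult WT mTEChi, 448.7 ± 83.7, followed by Nfkb2 at 135.6 ± 26.3, and Ltbr the lowest at 19.2 ± 1.70 CPM per kilobase (SD, n = 4). Relb (100.04 ± 22.4) could not be told from Tnfrsf11a or Tnfrsf11b by the spread of the pools.

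The other genes of the pathway were counted in 7 lists of 41 genes in all. In adult WT mTEChi against mTEClo 13 passed as higher, 3 as lower and 25 did not pass. In that test 13.6% of all genes were called, and 25.6% of genes with 10 or more mean CPM. Among the other receptors, Cd40 was at 258.4 ± 49.3 CPM against 16.3 ± 6.55 (log2 3.74 ± 0.37), Tnfrsf13c at 9.37 ± 2.92 against 0.608 ± 0.389 (log2 3.74 ± 0.61) and Tnfrsf1b at 57.4 ± 14.9 against 16.1 ± 5.09 (log2 1.60 ± 0.35), while Tnfrsf1a, the main TNF receptor, was lower at 54.2 ± 5.13 against 110.96 ± 36.2 CPM (log2 -1.28 ± 0.26). Of 6 adaptors and ligases Traf1 (log2 2.07 ± 0.19) and Birc3 (log2 1.19 ± 0.20) rose, of 3 other subunits Rel (log2 1.54 ± 0.24), and of 6 kinase components Tab1 fell and none rose (log2 -1.001 ± 0.21). Of 7 inhibitors Nfkbie, Tnip1 and Nfkbib rose (log2 1.71 ± 0.29, 1.49 ± 0.24 and 1.11 ± 0.23), whereas Tnfaip3, the A20 gene, fell from 348.7 ± 103.5 to 153.5 ± 58.1 CPM (log2 -1.39 ± 0.30). Of 6 common NF-kB targets Cd83, Bcl2l1 and Icam1 rose (log2 2.46 ± 0.68, 1.87 ± 0.21 and 1.71 ± 0.40). Of 8 ligand genes 1 passed, Lta, at 16.3 ± 3.47 CPM in mTEChi. Tnfsf11, the RANKL gene, averaged 4.76 ± 5.41 CPM in mTEChi and 0.751 ± 0.866 in mTEClo (SD, n = 4 and 3). Repeated without the cells of 1000 or more tuft-marker CPM, 15 of these 16 calls held. The call of Tnfaip3 did not (log2 -0.73 ± 0.29, edgeR adjusted p = 0.118), and its mTEClo pools stood at 427.9, 386.5 and 231.6 CPM at 4, 5 and 8 weeks, the 4- and 5-week pools being those with most tuft-marker cells. With the limit at 200 CPM, 13 of the 16 held, with Tnfaip3 (edgeR adjusted p = 0.206), Tab1 (0.115) and Cd83 (0.0914) above the threshold of 0.05. The pathway genes were tested under both limits only after the data were seen.

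Newborn mTEChi, mTEClo and cTECs were sorted onto the same 5 plates, so each plate gives its own set of 3 sums. The newborn cells form 1 pool per sort, and p-values over plates measure the spread between plates only. Of the 9 genes 7 were higher in mTEChi than in mTEClo and Ltbr was lower. Of all 23349 genes tested 47.6% were called, 25.5% as higher and 22.1% as lower, and of those with 10 or more mean CPM 58.8%, so that calls were common among all genes here. Tnfrsf11a was at 705.7, 575.8, 634.3, 810.2 and 719.9 CPM in mTEChi on plates 16 to 20 and at 123.6, 49.97, 147.7, 143.98 and 146.4 CPM in mTEClo. On each plate the mTEChi sum was the higher, and the log2 fold change was 2.60 ± 0.34 (edgeR adjusted p = 3.11e-05). Tnfrsf11b was at 356.96, 211.03, 387.2, 368.1 and 399.1 CPM in mTEChi and 10.4, 6.02, 24.9, 57.4 and 20.3 CPM in mTEClo, a log2 fold change of 3.95 ± 1.09 (edgeR adjusted p = 0.00821) that became 4.59 with the plate as a block. DESeq2 gave no adjusted p for Tnfrsf11b in the newborn comparisons. Ltbr was at 52.3, 52.3, 37.7, 56.9 and 59.9 CPM in mTEChi and 151.7, 160.7, 138.8, 167.05 and 144.3 CPM in mTEClo, again apart and again lower in mTEChi (log2 -1.46 ± 0.11, edgeR adjusted p = 3.57e-07).

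Relb averaged 346.5 ± 47.6 CPM in newborn mTEChi and 136.4 ± 18.3 CPM in mTEClo (SD, n = 5 plates), Nfkb2 709.3 ± 93.1 and 236.2 ± 41.2, Traf6 299.3 ± 36.5 and 92.5 ± 23.3, and Nfkbia 705.5 ± 128.2 and 307.3 ± 55.8 CPM. All 4 genes were apart between the sorts, with log2 fold changes of 1.44, 1.69, 1.81 and 1.301 and edgeR adjusted p of 1.39e-06, 1.36e-06, 1.19e-06 and 2.18e-05. Traf3 passed narrowly at a log2 fold change of 0.29 ± 0.11 (edgeR adjusted p = 0.0383), and the call was lost when plate 16, 18, 19 or 20 was left out. Map3k14 did not pass (log2 0.17 ± 0.18, edgeR adjusted p = 0.462). As a background, 43.6% of the genes with 10 or more mean CPM had sums that did not overlap between these newborn sorts. The newborn mTEChi pool held 375.4 CPM of the 4 myeloid markers and the mTEClo pool 41.6 CPM. The sums of 4 fibroblast markers (326.8 against 74.7 CPM), 7 T cell markers (113.9 against 29.1) and 3 B cell markers (9.53 against 1.71) were higher there too, and that of 3 endothelial markers was 19.1 against 19.7 CPM. The part of these markers in the differences was not tested.

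The other pathway genes were called in larger numbers over newborn plates than over adult pools, as were all genes. Of the 39 tested, 23 were higher and 5 lower in newborn mTEChi than in mTEClo, 20 were higher and 8 lower than in cTECs, and 11 were lower in mTEClo than in cTECs with none higher. In these comparisons, in that order, 47.6%, 54% and 9% of all genes were called. Of genes with 10 or more mean CPM the shares were 58.8%, 63.7% and 13.9%. In adult mTEChi against cTECs 2 were higher and 2 lower, where 2.86% of all genes were called, and in the other comparisons of pools none was called. Tnfaip3, whose lower level in adult mTEChi was not called without tuft-marker cells, was higher in newborn mTEChi than in newborn mTEClo (log2 1.08 ± 0.18), while the difference of its age effect between the sorts, 2.27 ± 0.65 on the log2 scale over pools, did not pass the correction in edgeR.

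**Figure D2:**
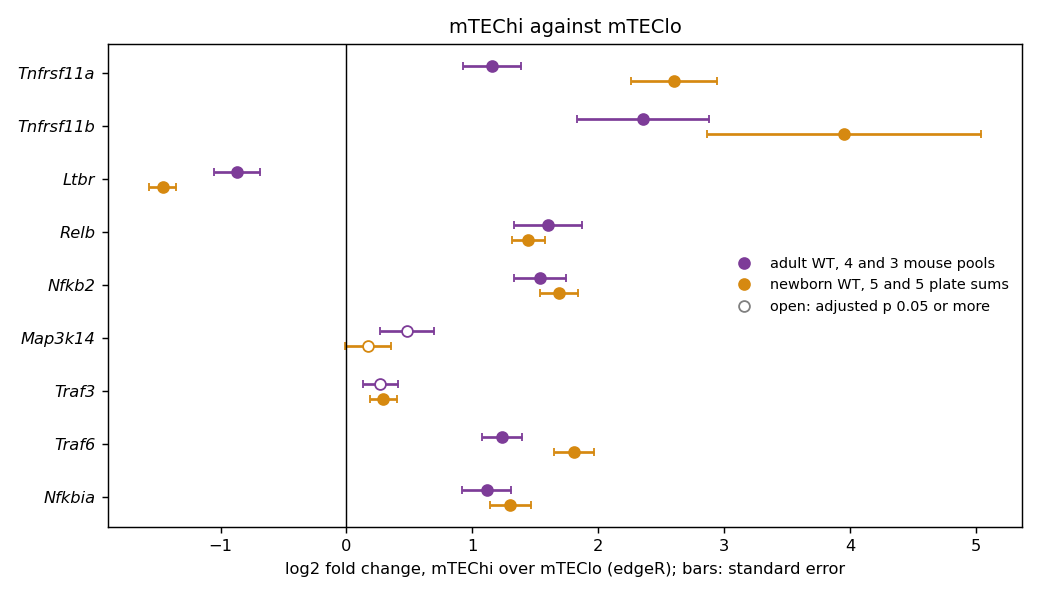
Log2 fold change of mTEChi over mTEClo (x axis) for the 9 genes (y axis) in adult WT mouse pools (purple, 4 and 3 pools) and in newborn WT plate sums (orange, 5 and 5). Bars are standard errors of the edgeR fit and open points have an adjusted p of 0.05 or more; Ltbr lies left of 0 at both ages and the other 8 genes right of it.

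In newborn cTECs the decoy gene was low on 4 of 5 plates. Tnfrsf11b was at 1.57, 2.41, 1.69, 89.97 and 4.38 CPM on plates 16 to 20, and the value of plate 19 came mainly from 1 of its 30 cells, which held 71.6% of the gene's reads there. Without that cell the plate stood at 26.2 CPM. Plate 19 held 2 cells of 500 or more CPM of Tnfrsf11b, of which only 1 is left out here. The other cTEC plates held no such cell. Compared with newborn mTEChi, the fitted log2 fold change was 4.06 ± 1.09 (edgeR adjusted p = 0.00605); it became 6.99 without plate 19 and 5.96 with the plate as a block. Tnfrsf11a was at 58.01, 77.2, 44.1, 161.6 and 82.4 CPM in these cTECs, a log2 difference of 2.98 ± 0.34 in favour of mTEChi (edgeR adjusted p = 8.28e-06). Of the 9 genes 6 were higher and 2 lower in newborn mTEChi than in cTECs, against 54% of all genes called, 29.4% as higher and 24.6% as lower, and 63.7% of genes with 10 or more mean CPM. Those lower were Ltbr, at 192.5, 181.9, 176.3, 198.1 and 195.2 CPM in cTECs (log2 -1.91 ± 0.11, edgeR adjusted p = 4.39e-08), and Traf3 (log2 -0.39 ± 0.11, edgeR adjusted p = 0.00705).

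Between newborn mTEClo and cTECs 4 genes differed. Ltbr was lower in mTEClo by a log2 fold change of -0.45 ± 0.10, and Relb (-0.57 ± 0.13), Nfkb2 (-0.52 ± 0.15) and Traf3 (-0.69 ± 0.11) were lower as well (edgeR adjusted p of 0.0157, 0.0127, 0.039 and 0.00175). That is 4 of 9 genes, all lower, where 9% of all genes were called (5.79% as lower) and 13.9% of genes with 10 or more mean CPM. None of the 9 passed with a change of at least 2-fold required as well, a rule that 4.53% of all genes met. Nfkb2 lost its call without any 1 plate, Ltbr without plate 16, 19 or 20 and Relb without plate 19 or 20, whereas Traf3 passed without each. The plate as a block added Traf6 (edgeR adjusted p = 0.0456). Tnfrsf11a did not pass, with a log2 fold change of 0.38 ± 0.32 (edgeR adjusted p = 0.512). As given above, this mTEClo sort carries Psmb11, and the part of cells with cortical genes in these differences was not tested.

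**Figure D3:**
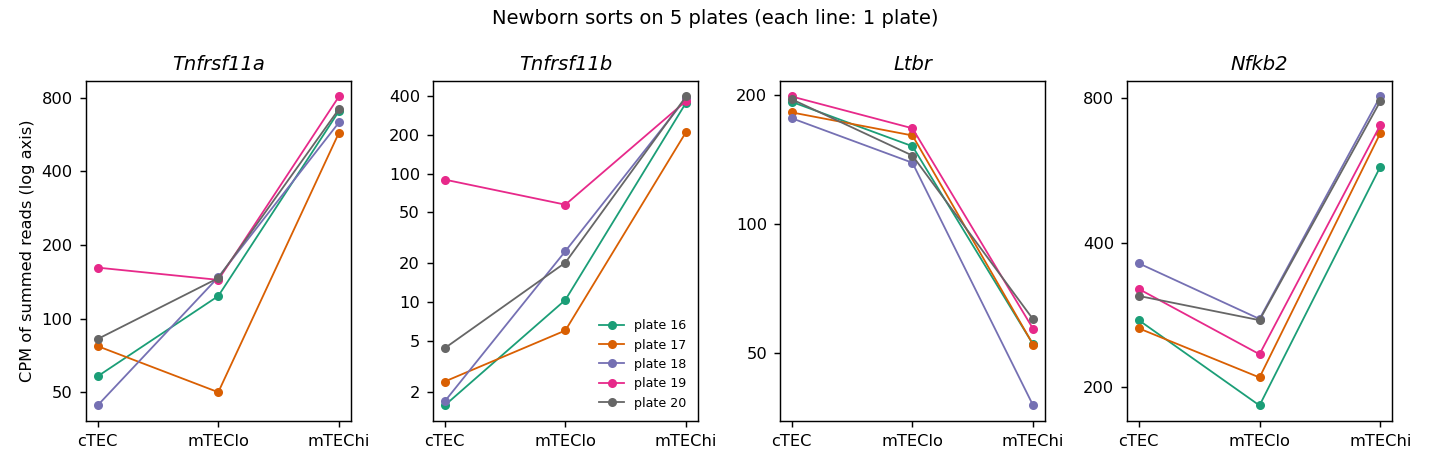
Levels of Tnfrsf11a, Tnfrsf11b, Ltbr and Nfkb2 in newborn cells, in CPM of summed reads on a log axis, in the 3 sorts (x axis). Each line joins the 3 sums of 1 of the 5 plates and stands for no course in time; plate 19 carries the only cTEC sum of Tnfrsf11b above 5 CPM.

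Adult cTECs came as 1 pool from 1 plate, so the comparison with them rests on the spread of the other pools. Ltbr was at 185.95 CPM in adult cTECs, above all mTEChi pools by a log2 fold change of 2.31 ± 0.24 (edgeR adjusted p = 0.00508), and Nfkbia at 192.7 CPM, below them by 1.64 ± 0.32 (edgeR adjusted p = 0.0332). Nfkbia lost its call without the 6-week or the 4-week female mTEChi pool or the 4-week mTEClo pool (edgeR adjusted p of 0.0502 to 0.064). These 2 of 9 genes were called, against 2.86% of all genes. Tnfrsf11a was at 169.8, Nfkb2 at 219.5 and Traf6 at 134.4 CPM in cTECs, each below every mTEChi pool, with edgeR adjusted p of 0.0673, 0.0836 and 0.104; DESeq2 and limma called all 3, along with 16% and 3.59% of all genes, as did edgeR on plates, with 10.2%. Traf3 was at 270.3 CPM in cTECs, above every medullary WT pool (edgeR adjusted p of 0.296 against mTEChi and 0.296 against mTEClo). Between adult mTEClo and cTECs edgeR called none of the 9 genes and 0.0573% of all genes. At an unadjusted p under 0.05 it had 2, Ltbr (log2 -1.44 ± 0.26) and Traf3 (log2 -0.69 ± 0.20), which DESeq2 called with 5.49% of all genes and limma, at 0.214% of all genes, did not. On plates edgeR called both, with 2.77% of all genes, and over pools it called Ltbr when the 8-week mTEClo pool was left out. The cTEC pool also held 384.4 CPM of the 7 T cell markers, whose part in these differences was not tested. Its Tnfrsf11a level was uneven over cells. The 5 cells of 500 or more CPM of Tnfrsf11b, described below, had 1784.97 CPM and the other 72 had 70.9 CPM. The share of all genes for which the cTEC pool lay beyond every mTEChi pool was not counted.

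The comparison of ages asked whether newborn cells carry the same levels as adult cells of the same sort. In mTEChi every newborn level lay inside or close to the range of the adult pools. Tnfrsf11a was at 692.3 CPM against 564.5, 567.6, 489.7 and 731.2 CPM, Relb at 342.5 and Nfkb2 at 692.2 CPM. None of the 9 genes was called by edgeR, DESeq2 or limma, and none had an unadjusted p under 0.05; edgeR called 0% of all 40148 genes, DESeq2 0.0847% and limma 0.705%. The 9 log2 fold changes ran from -0.31 (Map3k14) to 0.28 (Tnfrsf11b), with standard errors of 0.21 to 0.69. The age of the mice and their plates cannot be told apart.

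In mTEClo the newborn pool differed more. The adult pools of 4, 5 and 8 weeks had 54.5, 52.7 and 5.53% of cells at 1000 or more tuft-marker CPM, and the newborn pool 2.42%. Within adult mTEClo all 9 genes were lower in such cells, as given below. The part of these cells in the age differences of mTEClo was not tested. Tnfrsf11a was at 118.8 CPM, below the 198.6, 197.1 and 278.2 CPM of the adult pools (log2 -1.03 ± 0.36), and Ltbr at 154.3 CPM, above their 72.1, 62.6 and 76.8 CPM (log2 1.03 ± 0.26). Both had an unadjusted p under 0.05 and neither passed the correction (edgeR adjusted p = 0.403 and 0.254); edgeR called 0% of all genes. DESeq2 called Ltbr alone, with 4.98% of all genes, limma none, with 0.214%, and edgeR on plates both, with 22.5%. The newborn levels lay toward those of newborn cTECs, 86.3 CPM of Tnfrsf11a and 190.7 CPM of Ltbr. For the cTECs themselves, with 1 pool at each age, there is no test: Tnfrsf11a was at 169.8 CPM in adults and 86.3 CPM in newborns, Map3k14 at 107.4 and 168.3, Nfkb2 at 219.5 and 299.3, and Ltbr at 185.95 and 190.7 CPM. The Tnfrsf11a levels depended on few cells. Without the 5 adult and 2 newborn cells of 500 or more CPM of Tnfrsf11b, described below, they were 70.9 and 71.9 CPM. The difference of the age effect between mTEChi and mTEClo passed for none of the 9 genes in edgeR, DESeq2 or limma, which called 0%, 0.653% and 0.162% of all genes, and for Tnfrsf11a and Ltbr in edgeR on plates, which called 6.62%. It was largest for Tnfrsf11a at 1.297 ± 0.48 and Tnfrsf11b at 1.295 ± 1.02 on the log2 scale, and Tnfrsf11a alone had an unadjusted edgeR p under 0.05.

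Comparing Aire-KO with WT cells asked whether the pathway genes differ where Aire is missing. In the Aire-KO mTEChi pool Tnfrsf11a was at 748.3 CPM, Traf6 at 398.8, Map3k14 at 232.4 and Traf3 at 268.7 CPM, each above all 4 WT mTEChi pools. Ltbr at 32.2 and Tnfrsf11b at 209.7 CPM lay below all 4, while their fitted log2 fold changes were -0.21 ± 0.27 and -0.19 ± 0.72. Relb (388.3), Nfkb2 (536.3) and Nfkbia (617.3 CPM) lay within the WT range. The share of all genes outside the range of the WT pools was not counted. These positions of 1 pool are therefore not read as a result about the 9 genes. None of the 9 genes passed in edgeR, DESeq2 or limma, which called 0%, 1.85% and 0.0324% of all genes. With DESeq2's size factors in place of TMM the median log2 difference over all genes went from -0.01 to -0.18, and Nfkb2 and Nfkbia changed sign, so no direction is given for them. Of the 9 genes, 2 had an unadjusted edgeR p under 0.05, Traf6 (log2 0.72 ± 0.22) and Map3k14 (log2 0.79 ± 0.29, both with an adjusted p of 0.832). By plate, Traf6 ran from 354.2 to 455.6 CPM on 4 Aire-KO plates and from 239.8 to 312.9 CPM on 9 WT plates, without overlap, and Map3k14 from 142.3 to 283.2 and 105.8 to 208.2 CPM, with overlap. How many of all genes had no overlap between these plates was not counted. On plates, edgeR called both, with 8.87% of all genes, a test in which plates of 1 pool count as separate units. Genotype and plate cannot be told apart, since no plate held both genotypes.

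In the Aire-KO mTEClo pool the levels were 186.8 CPM of Tnfrsf11a, 32.6 of Tnfrsf11b, 62.2 of Ltbr, 96.1 of Relb and 179.4 CPM of Nfkb2. Nfkbia was at 235.9, Traf6 at 99.2, Traf3 at 171.9 and Map3k14 at 114.4 CPM. Tnfrsf11b, Relb, Nfkb2 and Traf3 lay inside the range of the WT mTEClo pools, Tnfrsf11a, Ltbr, Nfkbia and Traf6 below it and Map3k14 above it. Here too the share of all genes outside that range was not counted. No member had an unadjusted p under 0.05 in edgeR, and none was called by edgeR, DESeq2 or limma, which called 0.00249%, 0.702% and 0.0224% of all genes. The 9 tests of a difference in the Aire-KO effect between the sorts all failed the correction in edgeR, DESeq2 and limma, which called 0%, 0.451% and 0% of all genes, with Traf6 at 0.87 ± 0.33 and Tnfrsf11a at 0.94 ± 0.47 on the log2 scale.

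Levels of a pool can come from many cells or few, and the 9 genes differed widely in this. Nfkb2, Nfkbia, Map3k14, Traf3 and Traf6 had reads in at least 94.6% of the cells of each pool. Tnfrsf11b had reads in 92.6% to 100% of cells in the adult WT mTEChi pools, and in 24.2, 58.1 and 73.3% of cells in the 4-, 5- and 8-week mTEClo pools. With each cell thinned to 200000 reads the mTEClo shares were 22.7, 35.1 and 54.8%. The 8-week pool thus had the largest share of mTEClo cells with a read and the lowest summed level, 16.5 CPM. In the 4-week male mTEChi pool the 10% of cells with most reads held 50.7% of the Tnfrsf11b reads, 26.8% of the Tnfrsf11a reads and 22.2% of the Nfkb2 reads. In adult cTECs the top 10% of cells held 98.5%, 69.4% and 23.3%.

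The cells of the cTEC sort with most Tnfrsf11b were few. In adults, 5 of 77 cells of this sort had 500 or more CPM of Tnfrsf11b. Summed, these 5 cells had 1784.97 CPM of Tnfrsf11a and 9.59 CPM of Psmb11, where the others had 70.9 and 776.6 CPM. Enpep, the Ly51 gene, was at 426.8 CPM in the 5 cells and 390.7 CPM in the others, and Aire at 31.7 and 1.84 CPM. In newborns 2 cells of the cTEC sort passed the same level, with 1271.99 CPM of Tnfrsf11a, 7.43 of Psmb11 and 1741.1 of Aire, against 71.9, 926.6 and 37.6 CPM in the others. Prss16, like Psmb11 high in the cTEC sort as a whole, was at 30.9 against 1871.8 CPM in adults and 48.7 against 1881.3 CPM in newborns. These cells are thus cTECs by their sort and not by Psmb11 or Prss16. Aire was at 114.04 CPM in one of these 2 cells and 2955.2 CPM in the other. Enpep was at 64.4 CPM in their sum, against 187.03 CPM in the remaining newborn cTECs. The cells were chosen by their Tnfrsf11b level after it was seen, so these values are a description.

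**Figure D4:**
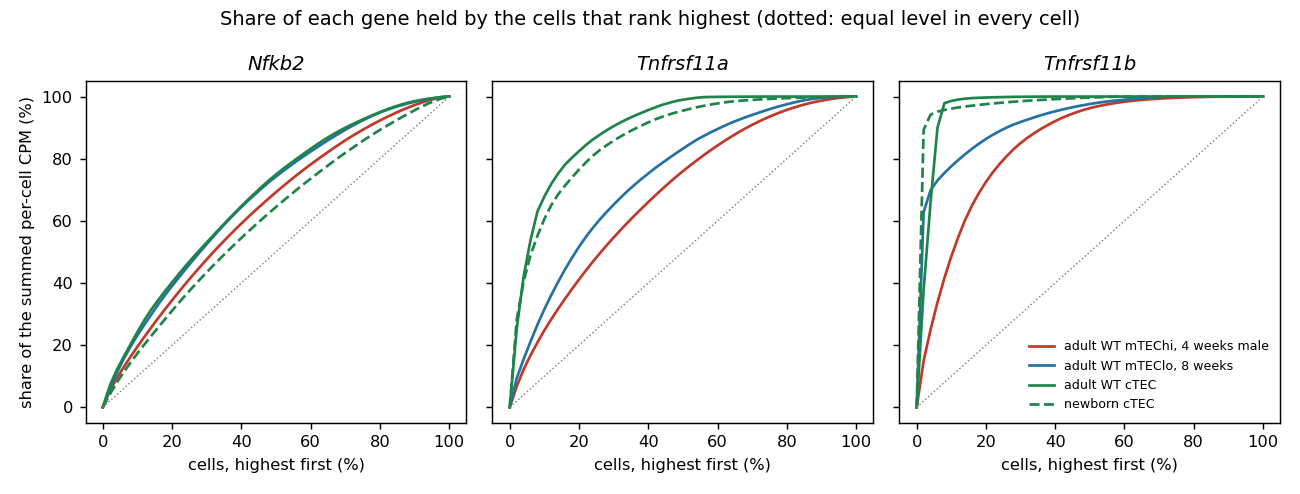
Share of the summed per-cell CPM (y axis, %) held by the cells of a pool ranked from highest to lowest (x axis, % of cells), for Nfkb2, Tnfrsf11a and Tnfrsf11b in 4 pools; the dotted line is an equal level in every cell. The curves of Tnfrsf11b in the cTEC pools reach over 90% within the first 10% of cells, while Nfkb2 is spread over many cells.

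In the low sort, Tnfrsf11a and Relb stood lower in tuft-marker cells than in the other cells. At 1000 CPM of the summed tuft markers Dclk1, Trpm5, Pou2f3 and Avil, a cut set after the data were seen and with 95 cells of all groups within 2-fold of it, the 3 WT mTEClo pools had 36, 39 and 12 cells at or above it. Tnfrsf11a was at 314.5, 318.97 and 286.5 CPM below the cut and 89.1, 77.2 and 126.7 CPM at or above it. Relb was at 154.1, 165.6 and 143.8 CPM below the cut and 26.7, 30.9 and 72.3 CPM at or above it. The Aire-KO mTEClo pool, with 23 such cells, gave 215.9 and 46.96 CPM of Tnfrsf11a and 111.2 and 23.4 CPM of Relb. In all 4 pools each of the 9 genes was lower in the cells at or above the cut, and the difference was not tested. The share of all genes lower in these cells was not counted, so the count is not read as particular to the 9 genes. Without these cells mTEChi still exceeded mTEClo in Tnfrsf11a by a log2 fold change of 0.81 ± 0.17 (edgeR adjusted p = 0.0176) and in Relb by 1.18 ± 0.19 (edgeR adjusted p = 0.00756). The calls of Nfkb2, Traf6, Nfkbia and Ltbr in mTEChi against mTEClo held too, that of Tnfrsf11b did not, and the comparisons of mTEClo with cTECs, with newborns and with Aire-KO cells still had none of the 9 genes called.

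**Figure D5:**
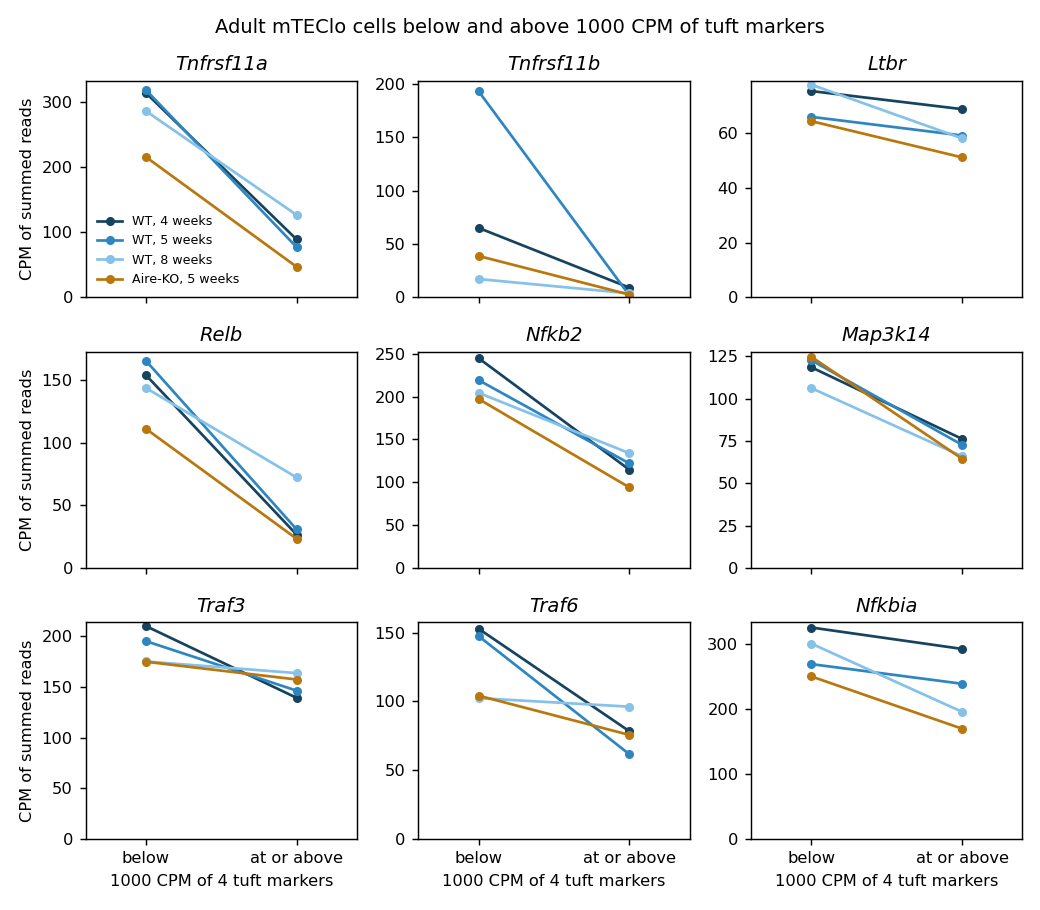
Levels of the 9 genes, in CPM of summed reads (y axis from 0), in adult mTEClo cells below and at or above 1000 CPM of 4 tuft markers (x axis). Each line joins both sets of cells of 1 pool (3 WT pools in blue, the Aire-KO pool in brown), and all lines fall to the right.

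Across single cells of adult WT mTEChi (620 cells that share 4 pools and differ in depth) the members varied together to different degrees. Spearman's rho was highest for Relb and Nfkb2, 0.53, and was 0.42 for Relb and Nfkbia and 0.40 for Tnfrsf11b and Traf6. Ltbr had negative values with all 8 others, -0.37 with Nfkb2 and -0.24 with Traf6. With Aire, rho was 0.52 for Nfkb2, 0.48 for Relb, 0.44 for Traf6, 0.31 for Tnfrsf11b, 0.24 for Tnfrsf11a and -0.41 for Ltbr. With reads per cell it was -0.00 for Nfkb2, -0.01 for Relb and -0.26 for Nfkbia. In the cells of the 8-week mTEClo pool, Relb and Nfkb2 again had the highest rho of the 36 pairs, 0.63, and Tnfrsf11a was at 0.53 with Nfkb2 and 0.52 with Relb. There Aire had a rho of 0.56 with Tnfrsf11b and of 0.03 with Nfkb2. These values describe cells of shared pools and carry no test.

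Over the 13 pools, the protein-coding genes whose log2(CPM + 1) followed each of 4 members most closely among 11374 genes were found by Pearson's r. For Relb they were Nfkb2 (0.982), Ptpn13 (0.980), Inf2 (0.979); for Nfkb2 Psd (0.990), Micall2 (0.990), Rab21 (0.989); for Tnfrsf11a Rbpj (0.976), Traf1 (0.970), Adam8 (0.969); and for Tnfrsf11b Reg3g (0.963), Slc28a2 (0.961), Dgat2 (0.961). The members of a pair share pools and sorts. Psd lies on the opposite strand and overlaps Nfkb2, and the counting ignored strand. How reads that fall on both genes were counted is not given in the sources used here. The part of the overlap in the likeness of Psd and Nfkb2 was not tested. Exons of Nfkb2 overlap those of Psd and AC114539.1 over 830 bases.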

How the data were processed

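Thymic epithelial cells of 8 groups were measured by RamDA-seq in 2148 sequencing samples; a cell was either 1 sample or, for 168 cells, 2 runs, and how the runs were combined is not given in the sources used here. The deposited counts are raw reads per gene. Per the study's methods and the submitters' processing notes, the authors trimmed the reads (fastp 0.20.0), mapped them to mm10 with STAR 2.7.3a and the Ensembl GRCm38.99 annotation, removed reads with a mapping quality under 5 (SAMtools 1.9) and duplicates (Picard 2.21.1), counted reads per gene without strand (htseq-count 0.11.2), and retained a cell only if over 200000 of its reads fell on over 8000 genes. All cells in the table met that filter, with 203010 to 1823784 reads (median 692880). A second table of length-scaled normalized values was not used.

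Gene names, positions and exon lengths came from GENCODE M21 (48263 of 48437 identifiers matched), promoters from RefSeq. Reads were summed over cells by mouse pool, and for newborns also by plate. Differences were tested with edgeR 4.0.16 in R 4.3.3 (quasi-likelihood F-test, two-sided, TMM, filterByExpr by group) over 40148 genes for pools, all groups in 1 fit with 5 residual degrees of freedom, and over 23349 genes for newborn plates, with Benjamini-Hochberg adjustment over all genes tested and a threshold of 0.05. A group of 1 pool is taken to vary like the others. The scripts were tested on simulated counts.

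Named genes were the 9 members, the members of the pathway and marker lists that passed the test, and for 4 members the 3 protein-coding genes of 10 or more mean CPM with the highest Pearson's r over the 13 pools. The members and lists were chosen with earlier results of these data known. No doublet caller was run, as 1 cell was sorted per well. Alternatives were DESeq2 1.42.0, its size factors in edgeR, limma 3.58.1 on log2(mean CPM over cells + 1), no filter, a 2-fold minimum, plates as units, the mTEC pools alone, a replicate block, cells without tuft markers, and each pool or plate left out. The newborn plates pair the sorts by their label, since the 3 sorts of a plate share it; deviations from the sort means of the same plate correlated at -0.03 to 0.14.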

Additional observations from a re-analysis of the deposited data

Results flagged for a closer look

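Each of the 9 genes was examined in the groups of 4 or 5 pools or plates for a sample far from the others, 36 groups in all, of which chance flags about 1 in 20. Among newborn plates, 4 values stood apart. Tnfrsf11b in cTECs was at 89.97 CPM on plate 19, against 1.57 to 4.38 CPM on the other 4 plates, and 1 cell held 71.6% of those reads. Tnfrsf11b in mTEChi was at 211.03 CPM on plate 17, against 356.96 to 399.1 CPM. Tnfrsf11a in mTEClo was at 49.97 CPM on plate 17, against 123.6 to 147.7 CPM. Traf6 in mTEChi was at 362.3 CPM on plate 18, against 267.2 to 292.8 CPM.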

How the results depend on the processing

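No called result changed direction under an alternative; of the fold changes of called genes recomputed under the alternatives, 44 lost their call and the others kept it, and under the 1000 CPM tuft-marker limit, added after the data were seen, 6 kept it and 1 lost it. The number of the 9 genes called moved as follows. In adult mTEChi against cTECs 2 became 5 by DESeq2, 5 by limma, 6 with plates as units, 4 without cells of 200 or more tuft-marker CPM and 1 with age and sex as a replicate block. In adult mTEClo against cTECs 0 became 2 by DESeq2 and 2 with plates as units. In newborn against adult mTEClo 0 became 1 by DESeq2 and 2 with plates as units, and plates as units gave 2 in place of 0 for Aire-KO mTEChi and for the difference of the age effect. In newborn mTEClo against cTECs 4 became 0 with the 2-fold minimum and 2 by limma. Leaving out 1 pool or plate gave 4 to 8 of 9 in adult mTEChi against mTEClo (4 without the 4-week mTEClo pool, 8 without the 5-week mTEChi pool), 1 to 4 in adult mTEChi against cTECs, 0 to 1 in adult mTEClo against cTECs and 1 to 4 in newborn mTEClo against cTECs. Pairing the newborn sorts with the plate as a block gave 8 of 9 in mTEChi against mTEClo, 8 against cTECs and 5 in mTEClo against cTECs, and Traf6 in the last was the one call it changed. In adults, pools shared only an age-and-sex label (correlations of their deviations -0.02 and 0.03), and that block gave 6 in place of 7 in mTEChi against mTEClo, without Ltbr. DESeq2 gave no adjusted p for Tnfrsf11b in the newborn comparisons. The number of pools, 1 for each group but adult WT mTEC, limits the tests of age, Aire genotype and adult cTECs. The CPM of a pool cannot by itself tell fewer cells with a transcript from less of it per cell. Shares of cells with a read vary with the reads per cell. The causes of the changed calls were not tested.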
